A study of Mus musculus with 8 samples.

Results

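The genes described here encode the proteins of the cytosolic ribosome in mouse heart. They were chosen by name: protein-coding symbols made of Rpl or Rps and a number, with an optional a, l or x or a like-suffix, together with Rplp0, Rplp1, Rplp2 and Rpsa, leaving out the Rps6 kinases and pseudogenes. The rule takes 84 genes of the reference annotation, and 83 of them were listed in the deposited tables, of 18215 genes listed in all. They comprise 52 large subunit (Rpl) and 31 small subunit (Rps) genes. Rpl10l was not listed in any library. Rpl32l and Rpl39l were listed at 1 and 7 expected counts over all 8 libraries and were too low to be tested, so 81 members, 50 large and 31 small, entered the comparison between groups. The rule leaves out some ribosomal proteins by their names, so Rps3a1, Fau and Rack1 are not members.

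A cytosolic ribosome holds a single copy of most of these proteins, assembled with ribosomal RNA in the nucleolus and joined into a small subunit, which reads the mRNA, and a large subunit, which joins the amino acids. The genes are scattered over the chromosomes, yet their mRNAs are made at broadly similar levels, and most begin with a C followed by an unbroken stretch of pyrimidines, the 5′ terminal oligopyrimidine (TOP) motif, through which mTOR and Larp1 control their translation. Some members have a paralogue used in place of the common form in particular tissues. In heart and skeletal muscle the best known is Rpl3l, which replaces Rpl3 near the peptidyl transferase centre.

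The hearts came from mice with a Carns transgene (TG, 4 libraries) and from wild-type mice (WT, 4 libraries). Carns1 encodes carnosine synthase, which makes histidyl dipeptides such as carnosine, and the study asked how the heart transcriptome differs when the gene is overexpressed. The labels used here give neither the promoter of the transgene nor the strain, age or sex of the mice, and they do not state that each library comes from its own animal. The p-values below therefore cover only the variation among these libraries, which could be technical.

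The libraries, made from polyadenylated RNA, held 6261193 to 7897629 expected counts in TG and 6277698 to 7778422 in WT. They fall on either side of 7000000 counts: TG 1, TG 3, WT 1 and WT 2 are deeper, and TG 2, TG 4, WT 3 and WT 4 are shallower, so each group holds 2 of each kind. Values below are in CPM, the expected count relative to the TMM-scaled size of its library, within a gene, and FPKM, which divides by gene length, wherever genes are compared with each other. Carns1 averaged 20770 ± 2449 CPM over the TG libraries and 62.5 ± 12.5 CPM over the WT libraries (SD, n = 4 each, as for all values with ± below), so the library labels match the transgene, though reads of transgene and endogenous gene are not separated. The tissue label was checked against cell type markers. None of the 10 cardiomyocyte markers was at 0. Their summed level lay between 92950 and 109100 CPM in TG and between 94640 and 109900 CPM in WT. It lay between 103500 and 109900 CPM in the deeper and between 92950 and 99120 CPM in the shallower libraries. The 8 fibroblast markers summed to 1282 to 1366 CPM in the deeper and 1508 to 2052 CPM in the shallower libraries. The 7 mural (vessel wall) markers summed to 1092 to 1178 CPM in the deeper and 1258 to 1777 CPM in the shallower. Sums of the other cell type lists overlapped between deeper and shallower libraries. The 4 atrial markers lay between 61.2 and 854 CPM in TG, with the top value in TG 2, and between 147 and 259 CPM in WT. The 8 macrophage markers lay between 511 and 855 CPM in TG and between 754 and 980 CPM in WT, and the 7 erythroid markers between 13420 and 29030 CPM in TG and between 17830 and 29320 CPM in WT.

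Ribosomal protein mRNAs were abundant in every library, and most sat within a narrow band. Leaving aside the 5 tested paralogues (Rpl3l, Rpl7l1, Rpl22l1, Rps27l and Rpl36al), the median over 76 genes was 417 FPKM, the lower and upper quartiles were 254 and 569 FPKM, and 63 were above 200 FPKM. The most abundant was Rps2 (NCBI Gene 16898), a protein of the mRNA entry side of the small subunit, at 1367 ± 153 FPKM in TG and 1490 ± 206 FPKM in WT. Rpl41 (67945), which encodes the smallest protein of the ribosome, followed at 1107 ± 101 FPKM in TG and 1250 ± 267 FPKM in WT. Rpl23a (268449), at the mouth of the exit tunnel, stood at 1125 ± 80.8 FPKM in TG and 1110 ± 122 FPKM in WT. The order of Rpl41 and Rpl23a does not exceed their spread between libraries. At the other end, Rps15a (267019) averaged 11.7 FPKM over the 8 libraries, Rpl22l1 (68028) 14.1 FPKM and Rpl7l1 (66229) 20.5 FPKM, so the highest and lowest of the 81 tested members differed 122-fold. The low value of Rps15a rests on the length the tables give it, 5158 bases against a median of 708 bases over the tested members. Its count was 59.1 ± 6.98 CPM in TG and 64.0 ± 7.37 CPM in WT. A listed length over 1800 bases was found in 9 members, Rps15a, Rps20, Rpl7l1, Rpl22, Rpl5, Rps3, Rpl21, Rpsa and Rpl15, and their per-length level depends on it.

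Ribosomal protein genes have many near-identical processed copies in the genome, and reads that match several places have to be divided among them. Of the 81 tested members, 57 had whole-number counts in all 8 libraries, and the other 24 had fractional counts in at least 1, which arises where reads are divided among genes. The levels of those 24, among them Rps2, Rplp0, Rplp2, Rpl23, Rpl39, Rpl7l1, Rps15a, Rps20, Rps3, Rpl36a and Rpl22l1, are therefore less certain. Their median log2 fold change, TG over WT, was -0.09, and that of the 57 was -0.13.

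As a share of all counts in a library, the members took 2.58%, 2.37%, 2.50% and 2.28% in TG 1 to TG 4, and 2.79%, 2.99%, 2.53% and 2.29% in WT 1 to WT 4. WT 2 and WT 1 were the highest of the 8 and TG 4 the lowest, closely followed by WT 4, and the ranges of the groups overlap. The mean was 2.43% ± 0.134 in TG and 2.65% ± 0.302 in WT, a difference of -0.217 percentage points, which is smaller than the spread between the WT libraries. With Carns1 left out of the totals the difference was -0.166 points. Without WT 2 the difference was -0.105 points, without WT 4 it was -0.336 points, within the deeper libraries -0.347 points, and within the shallower ones -0.0876 points. In bulk tissue, fewer cells of a type and less RNA per cell cannot be told apart. The large subunit genes took 1.46% ± 0.0717 in TG and 1.58% ± 0.167 in WT, and the small subunit genes 0.973% ± 0.0633 in TG and 1.07% ± 0.135 in WT. The ratio of large to small subunit counts was nearly constant, at 1.503 ± 0.0287 in TG and 1.487 ± 0.0322 in WT. It was 1.47 ± 0.0209 in the deeper and 1.52 ± 0.0101 in the shallower libraries.

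**Figure D1:**
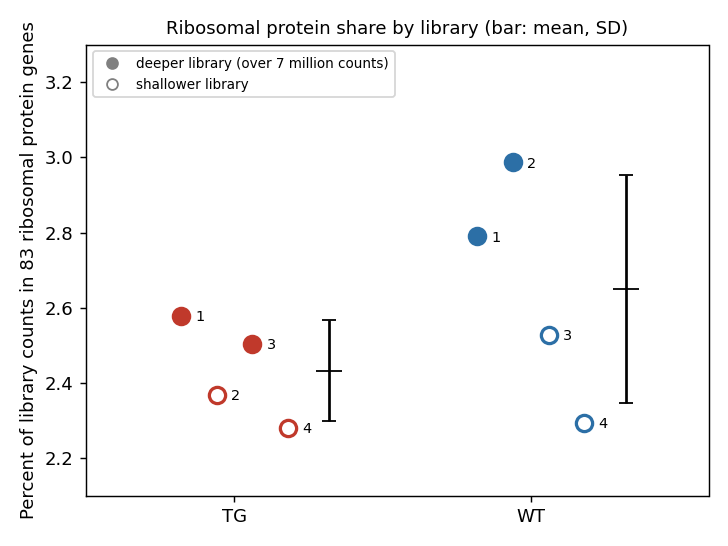
Share of all counts of a library that fell in the 83 ribosomal protein genes, in percent on the vertical axis (which does not start at 0), with TG at the left and WT at the right. Each point is 1 library, numbered by replicate, filled for a deeper and open for a shallower library, and the bar gives the mean and SD of the 4. The TG libraries lie between 2.28% and 2.58% and the WT libraries between 2.29% and 2.99%, and in each group the 2 deeper libraries lie above the 2 shallower ones.

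No ribosomal protein gene passed the test between TG and WT hearts. By edgeR's quasi-likelihood test with Benjamini-Hochberg adjustment over 12670 genes, 0 of 81 members had an adjusted p under 0.05, and each member's adjusted p was 0.9996. The background is 2 of 12670 genes, or 0.0158%, both of them outside the ribosome (Carns1 and Lrrc15). At an unadjusted p under 0.05 the count was also 0 of 81, against 441 genes or 3.48% of all tested, and the smallest unadjusted p of a member was 0.0628, for Rps20. DESeq2 called 0 members as well. The count at an unadjusted p under 0.05 changed once depth entered the fit, in settings added after the data were seen. With the depth class of the libraries as a covariate it was 16 of 81 members, all lower in TG, against 8.97% of all genes, and the smallest adjusted p of a member was 0.215. In the deeper libraries alone, 2 against 2, it was 25 of 81, all lower in TG, against 9.15% of all genes, with a smallest adjusted p of 0.277. In the shallower libraries alone it was 3 of 81, of which 2 were lower in TG, against 5.55%. Without WT 4 it was 7 of 81, all lower in TG, against 4.38%, and in the other settings tried it was 0 to 3. No member had TG and WT libraries that did not overlap, against 164 genes (1.29%) with all TG libraries lower and 156 (1.23%) with all TG libraries higher. In 77 of the 81 members the difference between the group means was smaller than the pooled SD within groups. The same count was not taken over all tested genes, so it sets the members apart from no other genes.

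The differences were small and mostly of the same sign. The log2 fold changes, TG over WT, ran from -0.25 in Rplp1 to 0.08 in Rpl36al, with a median of -0.12 and a median SE of 0.14, against a median of 0.00 over all 12670 genes. They lay below 0 in 70 of 81 members (86.4%), against 50.5% of all tested genes. Among large subunit genes 41 of 50 were below 0, with a median of -0.11, and among small subunit genes 29 of 31, with a median of -0.14. These genes share the same 8 libraries and vary together, so the count of signs is not a count of independent observations. The median moved with single libraries: it was -0.03 without WT 2, where 50 of 81 members were below 0, -0.07 without TG 4, and -0.19 without WT 4. It was -0.17 within the deeper libraries, where 77 of 81 members were below 0, and -0.03 within the shallower ones, where 50 were. With offsets for GC content and length the median was -0.01, and 49 of 81 members were below 0.

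**Figure D2:**
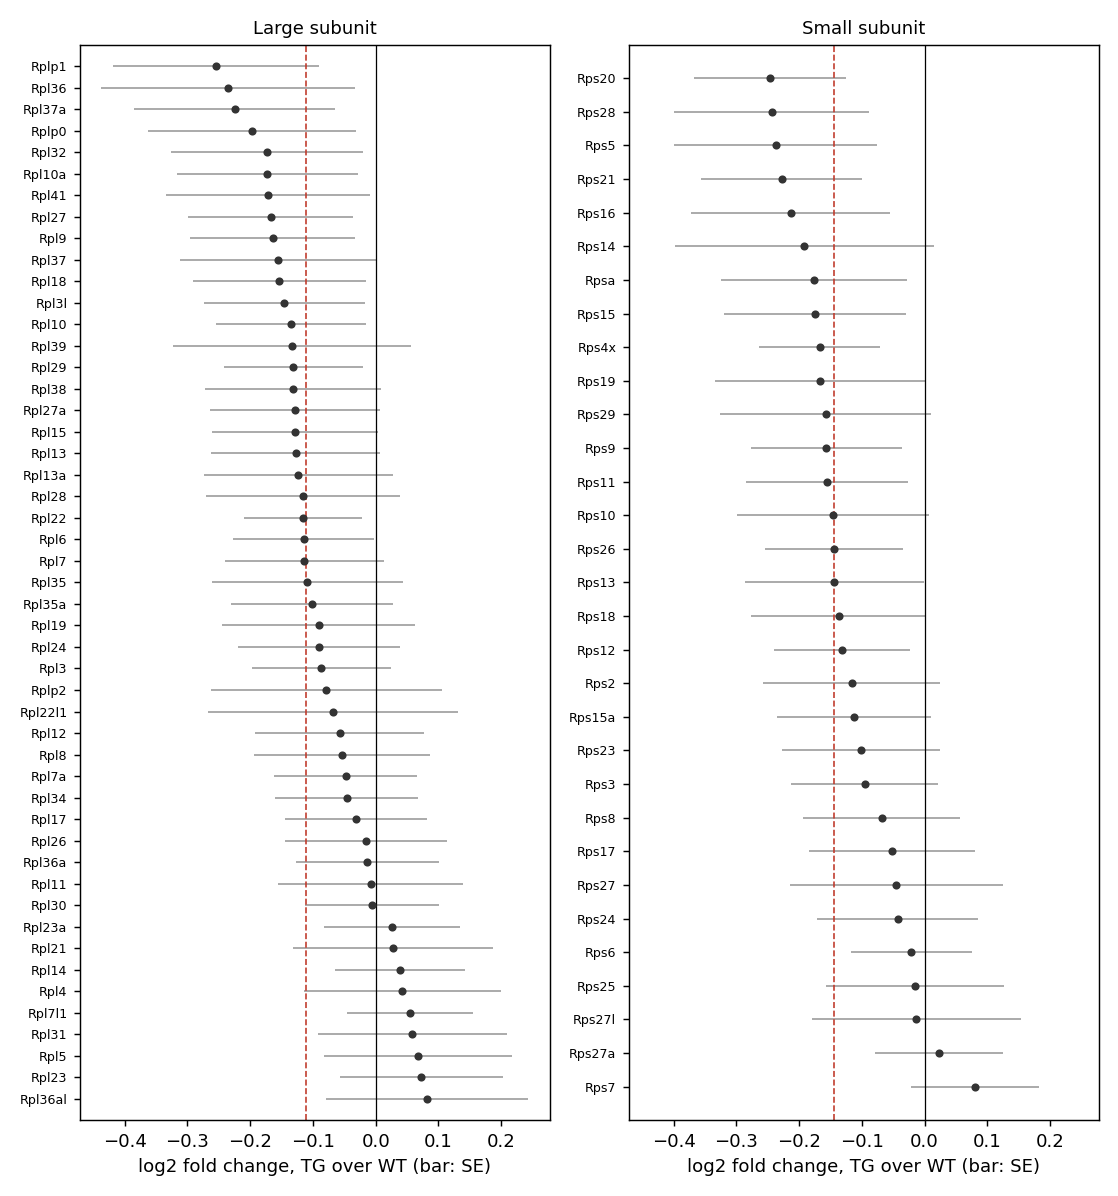
Log2 fold change of each tested member but 1, TG over WT, on the horizontal axis, with large subunit genes in the left panel and small subunit genes in the right one. Points are edgeR estimates, bars give 1 SE on either side, and the dashed line marks the median over all tested genes of that subunit (-0.11 and -0.14). All estimates lie between -0.25 and 0.08, and most are below 0.

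Among small subunit genes, Rps20 (67427), a protein of the head of the subunit, had the smallest unadjusted p. Its counts were 123.7, 124.9, 114.7 and 115.5 CPM in TG 1 to TG 4, and 135.0, 175.4, 140.0 and 117.9 CPM in WT 1 to WT 4. WT 2 was far above the others, and WT 4 lay among the TG libraries. The log2 fold change was -0.25 (SE 0.12, edgeR unadjusted p = 0.0628). Rps4x (20102), the X-linked copy of a gene that also has a Y-linked form in humans, had 295.6, 298.0, 299.0 and 274.6 CPM in TG 1 to TG 4, and 320.7, 358.3, 333.8 and 297.7 CPM in WT 1 to WT 4. Only WT 4 overlapped the TG libraries, and the log2 fold change was -0.17 (SE 0.10, edgeR unadjusted p = 0.107). Rps21 (66481) and Rps28 (54127) encode short proteins of the small subunit. Rps21 averaged 85.8 ± 11.8 CPM in TG and 100.5 ± 13.1 CPM in WT, with a log2 fold change of -0.23 (SE 0.13). Rps28 averaged 114 ± 14.9 CPM in TG and 135 ± 31.1 CPM in WT, with a log2 fold change of -0.24 (SE 0.16). In both genes the top library was WT 2 and the lowest was TG 4.

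Small subunit genes with roles outside translation, or with a known signalling input, also overlapped between the groups. Rps6 (20104), the target of the S6 kinases downstream of mTOR, was among the steadiest members, with 509.9, 520.4, 491.0 and 495.0 CPM in TG 1 to TG 4 and 501.7, 571.8, 499.3 and 473.3 CPM in WT 1 to WT 4. The WT libraries enclose the whole TG range, and the log2 fold change was -0.02 (SE 0.10). Rps3 (27050), which lines the mRNA entry channel and also takes part in DNA repair, averaged 390 ± 30.3 CPM in TG and 417 ± 57.1 CPM in WT (log2 fold change -0.10, SE 0.12). Rpsa (16785), known also as the laminin receptor, averaged 837 ± 108 CPM in TG and 946 ± 188 CPM in WT (log2 fold change -0.18, SE 0.15). Rps7 (20115), which can bind Mdm2, was the small subunit gene with the highest fold change, at 0.08 (SE 0.10), with 344 ± 11.9 CPM in TG and 325 ± 34.0 CPM in WT. Rps27a, which encodes a fusion with ubiquitin, was the only other small subunit gene above 0.

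The stalk of the large subunit is built from Rplp0, its base, and the acidic proteins Rplp1 and Rplp2, which recruit elongation factors. Rplp1 (56040) had the lowest fold change of all members. Its counts were 462.1, 306.1, 413.0 and 306.6 CPM in TG 1 to TG 4, and 512.6, 517.6, 381.2 and 363.2 CPM in WT 1 to WT 4. In each group the 2 deeper libraries were above the 2 shallower ones, and the groups overlap widely (log2 fold change -0.25, SE 0.16). Rplp0 (11837) showed the same order of libraries, with 1458, 963, 1333 and 1008 CPM in TG 1 to TG 4 and 1584, 1595, 1211 and 1070 CPM in WT 1 to WT 4 (log2 fold change -0.20, SE 0.17). Rplp2 (67186) averaged 225 ± 48.2 CPM in TG and 238 ± 58.3 CPM in WT (log2 fold change -0.08, SE 0.18). Between deeper and shallower libraries the 3 stalk genes differed by 0.49, 0.49 and 0.57 on the log2 scale for Rplp0, Rplp1 and Rplp2, which is more than their differences between TG and WT.

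Rpl5 and Rpl11, which bind the small ribosomal RNA of the large subunit and, when free, inhibit Mdm2, did not follow each other. Rpl5 (100503670) had 211.7, 325.2, 232.3 and 263.0 CPM in TG 1 to TG 4 and 210.7, 214.0, 292.3 and 267.8 CPM in WT 1 to WT 4. Every shallower library was above every deeper one, in TG and in WT, and the log2 fold change between groups was 0.07 (SE 0.15). Rpl11 (67025) had 313.8, 283.6, 310.1 and 257.7 CPM in TG 1 to TG 4 and 328.6, 363.0, 258.7 and 221.0 CPM in WT 1 to WT 4, and here the deeper libraries were the higher ones (log2 fold change -0.01, SE 0.15). Rpl23 (65019), another Mdm2-binding protein, averaged 207 ± 28.7 CPM in TG and 197 ± 28.7 CPM in WT (log2 fold change 0.07, SE 0.13). Rpl13a (22121), which in humans can leave the ribosome to silence inflammatory mRNAs, averaged 452 ± 70.7 CPM in TG and 492 ± 91.6 CPM in WT (log2 fold change -0.12, SE 0.15). Rpl10 (110954), which joins the large subunit late in its assembly, averaged 411 ± 25.7 CPM in TG and 451 ± 69.3 CPM in WT (log2 fold change -0.13, SE 0.12), and Rpl41 and Rpl23a had fold changes of -0.17 (SE 0.16) and 0.03 (SE 0.11).

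Rpl3l, the muscle form, was more abundant than Rpl3 in every library. Rpl3l (66211) had 259.1, 196.8, 255.9 and 203.4 FPKM in TG 1 to TG 4 and 280.8, 247.3, 252.2 and 245.3 FPKM in WT 1 to WT 4. Rpl3 (27367) had 165.6, 163.8, 158.9 and 155.5 FPKM in TG 1 to TG 4 and 187.9, 180.8, 170.2 and 148.5 FPKM in WT 1 to WT 4. The lowest Rpl3l value exceeds the highest Rpl3 value. Rpl3l made up 61.0%, 54.6%, 61.7% and 56.7% of the summed FPKM of the pair in TG 1 to TG 4, and 59.9%, 57.8%, 59.7% and 62.3% in WT 1 to WT 4. TG 2 and TG 4 hold the lowest shares and the other 2 TG libraries lie inside the WT range. The log2 ratio of Rpl3l to Rpl3 was 0.50 ± 0.20 in TG and 0.58 ± 0.11 in WT, a difference of -0.08, which is smaller than the spread in either group. It was 0.15 within the deeper libraries and -0.32 within the shallower ones, and -0.01 without TG 2, -0.04 without WT 4, -0.05 without TG 4, -0.13 without WT 2, -0.13 without TG 1 and -0.15 without TG 3. TG 2 is also the library with the most atrial marker counts, 854 CPM, against 61.2 to 215 CPM in the other TG libraries, and with 887.8 CPM of adipocyte markers, against 2.22 to 45.1 CPM in those. Whether tissue from the atria or fat takes part in its ratio was not tested. In CPM, Rpl3l had a log2 fold change of -0.15 (SE 0.13) and Rpl3 of -0.09 (SE 0.11).

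The other paralogues were the lesser partner of their pair in every library. Rpl36al made up 35.0% ± 4.87 of the summed FPKM of Rpl36al and Rpl36a in TG and 33.6% ± 1.79 in WT. Rpl22l1, whose partner Rpl22 binds RNA hairpins and represses the paralogue, made up 22.0% ± 3.37 in TG and 21.4% ± 2.08 in WT. Rps27l, a p53 target, made up 10.66% ± 0.693 in TG and 10.50% ± 0.600 in WT of its pair with Rps27. Rpl7l1 made up 6.86% ± 0.847 in TG and 6.09% ± 0.554 in WT of its pair with Rpl7. In each pair the ranges overlap. These shares depend on the listed lengths, 477 bases for Rpl22l1 and 2204 for Rpl22, and 2606 for Rpl7l1 and 937 for Rpl7. Without division by length, Rpl22l1 averaged 6.33 CPM over the 8 libraries and Rpl22 111.8 CPM. Rpl7l1 averaged 53.95 CPM and Rpl7 276.5 CPM. Rpl39l, the form known from male germ cells, was listed in 3 libraries, at 2 and 1 expected counts in TG 1 and TG 3 and at 4 in WT 2. In the other libraries it was not detectable at this depth, where 3 counts correspond to 0.380 to 0.479 CPM. Its partner Rpl39 (67248) at the exit tunnel stood at 178 ± 32.2 FPKM in TG and 196 ± 47.1 FPKM in WT.

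Rpl22l1 had few counts, with 5.21, 7.92, 5.27 and 6.38 CPM in TG 1 to TG 4 and 6.43, 6.13, 7.81 and 5.49 CPM in WT 1 to WT 4. TG 2 and WT 3 were the highest and TG 1 and TG 3 the lowest. The fold changes of the common partners were -0.12 (SE 0.09) in Rpl22, -0.01 (SE 0.11) in Rpl36a, -0.11 (SE 0.13) in Rpl7, -0.13 (SE 0.19) in Rpl39 and -0.05 (SE 0.17) in Rps27. Those of the paralogues were -0.07 (SE 0.20) in Rpl22l1, 0.08 (SE 0.16) in Rpl36al, 0.05 (SE 0.10) in Rpl7l1 and -0.01 (SE 0.17) in Rps27l, all on the log2 scale, TG over WT.

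**Figure D3:**
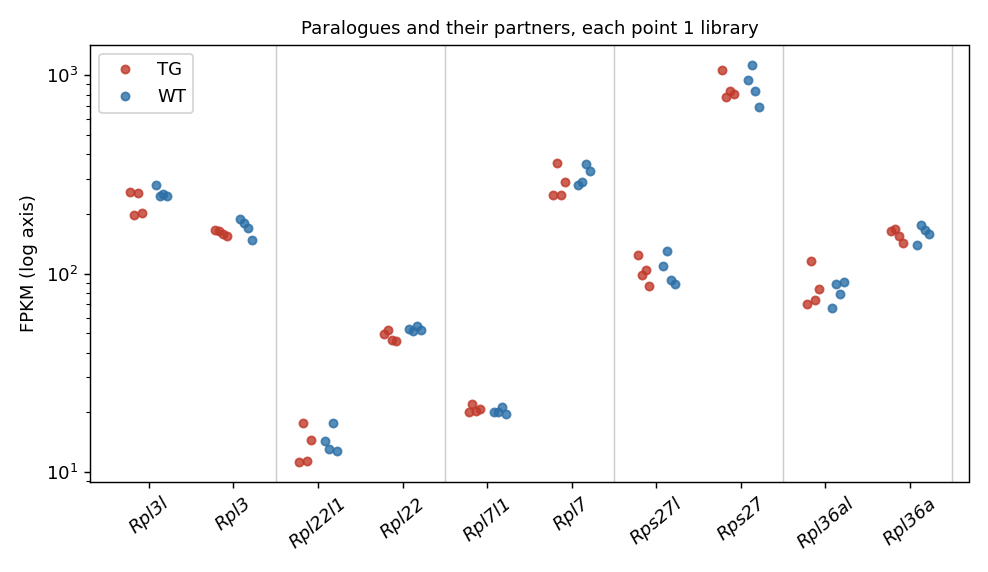
FPKM on a log axis of each paralogue beside its common partner, 1 point for each library, TG left of WT. Rpl3l lies above Rpl3 in all 8 libraries, from 197 to 281 FPKM against 149 to 188 FPKM, and the other paralogues lie below their partners. Within each gene the TG and WT points overlap.

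The spread of a member over all 8 libraries had a median range of 0.61 on the log2 scale. The steadiest was Rpl7l1, with 54.3, 57.6, 54.9 and 53.1 CPM in TG 1 to TG 4 and 52.4, 55.1, 55.0 and 49.1 CPM in WT 1 to WT 4, a range of 0.23. Rps27a (0.26), Rps6 (0.27) and Rpl22 (0.28) followed. The widest was Rpl36 (54217), a short protein of the large subunit, with 192.3, 139.2, 175.1 and 106.9 CPM in TG 1 to TG 4 and 214.7, 224.6, 154.6 and 128.1 CPM in WT 1 to WT 4, a range of 1.07. TG 4 and WT 4 were its lowest libraries. Rpl39 (0.94), Rps19 (0.93), the gene most often mutated in Diamond-Blackfan anaemia in humans, and Rpl37a (0.91) came next.

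The members varied together from library to library, and differed more between the deeper and the shallower libraries than between groups. A single component held 75.5% of the variance of the 81 genes over the 8 libraries. Neither this share nor the counts of highest and lowest values that follow were taken over all genes. WT 2 held the highest value of 62 members, while WT 4 held the lowest of 32 and TG 4 the lowest of 23. The median deviation of a member from its own mean was 0.08, -0.09, 0.01 and -0.20 on the log2 scale in TG 1 to TG 4, and 0.12, 0.31, -0.02 and -0.21 in WT 1 to WT 4. The 4 deeper libraries stood above the 4 shallower ones. Within these classes the order of the libraries matched that of their totals only in part. TG 1, the largest library, stood below WT 1 and WT 2, and TG 2, the smallest, stood above TG 4. TG 3, the smallest of the deeper libraries, stood lowest among them, and WT 4 stood below the larger TG 4 and WT 3. Cardiomyocyte, fibroblast and mural marker sums also split the deeper from the shallower libraries. Whether depth or tissue make-up takes part in the pattern was not tested. TG 2 held the highest value of 12 members and the lowest of 13.

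**Figure D4:**
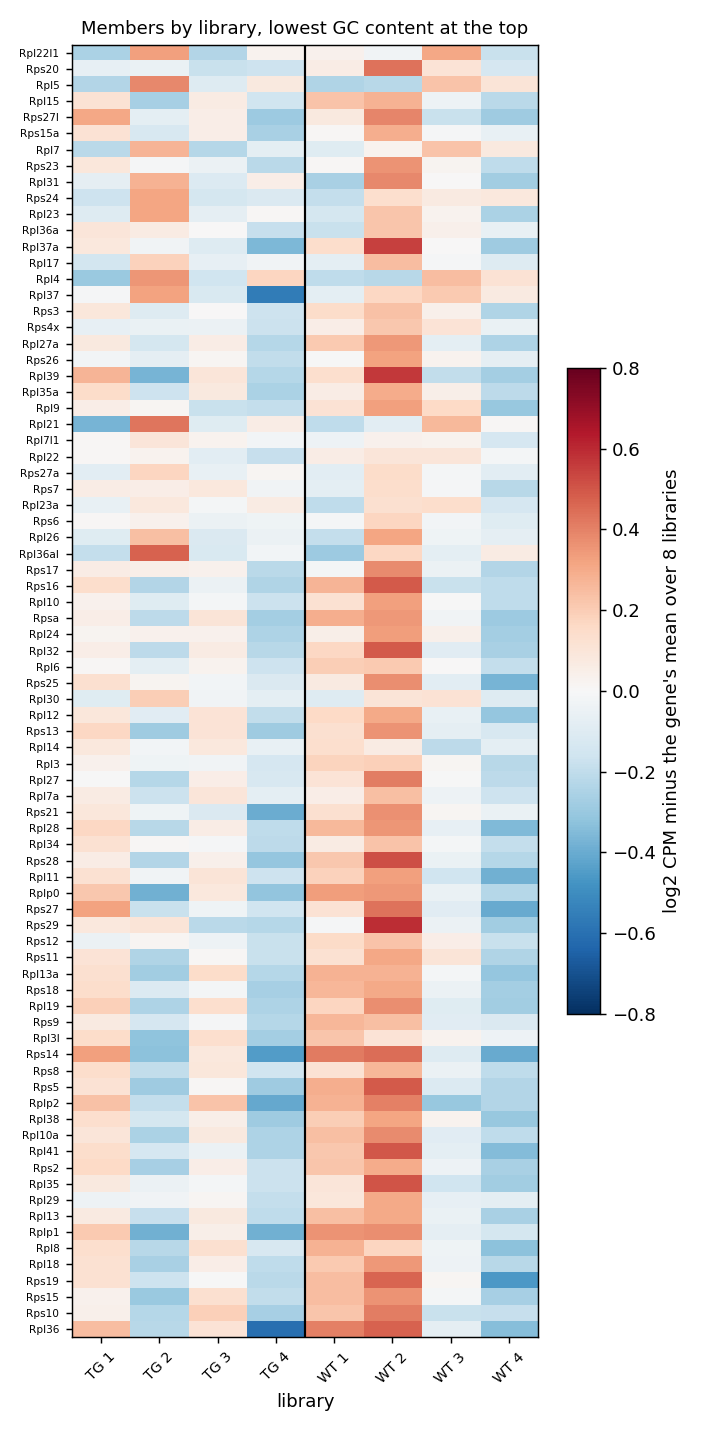
Each row is 1 tested member (1 of the 81 is not drawn), ordered from the lowest GC content at the top to the highest at the bottom, and each column is 1 library, the 4 TG libraries left of the 4 WT libraries. Red marks a value above the mean of that gene over the 8 libraries and blue one below, on the log2 scale. The column of WT 2 is red for most genes and those of TG 4 and WT 4 blue, while TG 2 is red for several genes of low GC content and blue for many of high GC content.

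Across the split by depth, which was chosen after the data were seen, 66 of 81 members were higher in the deeper libraries, against 50.3% of all tested genes. The median log2 difference of the members, deeper minus shallower, was 0.28, against 0.00 over all tested genes. In 41 members all 4 deeper libraries lay above all 4 shallower ones, against 1756 genes or 13.9% of all tested. The reverse was seen in 3 members, against 2025 genes or 16.0%. In 73 of 81 members this difference was larger in size than that between TG and WT. That count was not taken over all genes, of which 13.9% and 16.0% separated fully by depth, against 1.29% and 1.23% by group. TG and WT hold 2 deeper and 2 shallower libraries each. Rps14, a protein of the platform of the small subunit, had 457.8 and 386.1 CPM in TG 1 and TG 3 and 487.0 and 498.4 CPM in WT 1 and WT 2, the deeper libraries. In the shallower ones it had 290.7 and 268.0 CPM in TG 2 and TG 4 and 340.2 and 276.2 CPM in WT 3 and WT 4, a log2 difference of 0.64, the largest of the members. Rpl36 followed at 0.62. At the other end Rpl4 had 266.7 and 293.6 CPM in TG 1 and TG 3 and 284.5 and 281.1 CPM in WT 1 and WT 2. Its shallower libraries were all higher, with 420.1 and 369.1 CPM in TG 2 and TG 4 and 389.2 and 355.4 CPM in WT 3 and WT 4, a log2 difference of -0.44. Rpl5 (-0.40), Rpl21 (-0.38) and Rpl7 (-0.25) also had negative differences.

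GC content ran along with this pattern. Over the 81 members, the GC content of a gene's transcripts and its difference between deeper and shallower libraries had a Spearman correlation of 0.62 (Pearson 0.59), and over 12557 tested genes with a GC value 0.71 (Pearson 0.67). These correlations run across genes that share the same 8 libraries. The members had a median GC content of 51.6%, against 50.7% over all genes, and a median transcript length of 799 bases, against 2926 bases. The median difference by depth was 0.07 in the 27 members with the lowest GC content (40.6% to 49.3%), 0.23 in the next 27 (49.4% to 53.0%) and 0.36 in the 27 with the highest (53.1% to 60.8%). Of the 81 members, 71 lay above the median of all genes in the same of 10 equal bins of GC content. The fold change between TG and WT had a Spearman correlation with GC content of -0.40 over the members and -0.14 over all genes, but its median did not fall steadily: it was -0.10 in the 27 members of lowest GC content, -0.06 in the middle 27 and -0.15 in the 27 of highest, with 20, 23 and 27 members below 0. The part of GC content in the fold changes was not tested beyond the offsets given above.

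**Figure D5:**
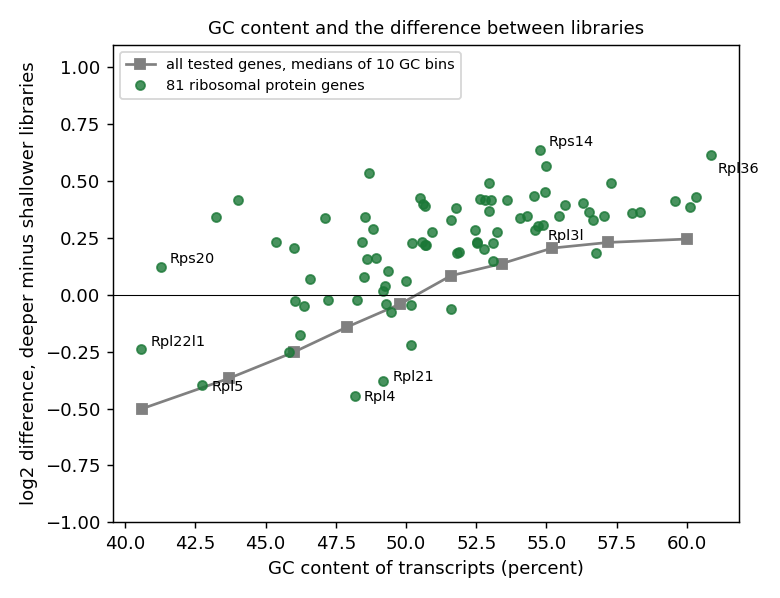
GC content of the transcripts in percent on the horizontal axis and the log2 difference of deeper minus shallower libraries on the vertical axis. Green points are the 81 tested members, and grey squares give the median of all tested genes in each of 10 equal bins of GC content. The squares run from -0.50 to 0.25, and 71 of 81 members lie above the median of their bin.

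The annotated transcription starts of the members were read for the TOP motif, since the mRNAs that carry it are controlled together. Windows were taken from RefSeq promoters on GRCm38.p6, from 10 bases before a start through the first 20 bases of the transcript, and 63 members with 75 starts were matched by gene number. A run of at least 5 pyrimidines that opens with C within 5 bases of the start was found at 32 of 75 member starts (42.7%), against 3951 of 21263 starts of protein-coding genes (18.6%). Most member starts thus held no such run here, while starts were taken as annotated and not measured in these libraries. A member without a run is therefore not shown to lack the motif. The windows below are shown because they hold such a run, in capitals, in members of both subunits described above or with long runs, and because the last 2, from Rpl3l, hold none.
Rps6, chr4:86857348-86857377, minus strand: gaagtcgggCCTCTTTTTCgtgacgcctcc
Rps27, chr3:90213629-90213658, minus strand: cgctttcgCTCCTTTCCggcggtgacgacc
Rps2, chr17:24720053-24720082, plus strand: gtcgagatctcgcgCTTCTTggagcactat
Rps21, chr2:180257369-180257398, plus strand: aggacccgCCCTCCTgcccaatagtgctgc
Rpl13a, chr7:45128726-45128755, minus strand: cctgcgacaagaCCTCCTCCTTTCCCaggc
Rpl15, chr14:18270967-18270996, minus strand: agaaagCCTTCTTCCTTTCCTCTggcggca
Rpl27a, chr7:109519185-109519214, plus strand: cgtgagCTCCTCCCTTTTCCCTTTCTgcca
Rpl28, chr7:4792955-4792984, plus strand: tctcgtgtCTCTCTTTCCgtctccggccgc
Rplp2, chr7:141447641-141447670, plus strand: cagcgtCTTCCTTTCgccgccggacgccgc
Rpl22l1, chr3:28805498-28805527, plus strand: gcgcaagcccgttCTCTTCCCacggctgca
Rpl3l, chr17:24727816-24727845, plus strand: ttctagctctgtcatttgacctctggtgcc
Rpl3l, chr17:24732675-24732704, plus strand: caacagctacagtgccccaaatgtcctgaa
The run is 20 bases long in Rpl27a and 17 in Rpl15. CTTTCC on the sense strand was found in 29 of 75 member promoters of 300 bases (38.7%), against 13.9% of all promoters. CTTTCC can lie inside the pyrimidine run and is then no separate match. CCGGAAGT, the letters bound by Gabpa and other Ets factors, was found on either strand in 16.0% of member promoters, against 5.15%, and GGGCGG on either strand in 58.7%, against 46.2%. TATAAA on the sense strand was found in 9.33%, against 8.26%. A match is a description of letters and not a measured site, and a window without one says nothing of the factor. The 29 tested members with a run at a start had a median log2 fold change, TG over WT, of -0.11, and the 32 with a matched start and no run had -0.13. Their median differences by depth were 0.33 and 0.23.

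Ribosomal proteins that the naming rule leaves out were close to the members. Rack1, a scaffold on the small subunit, had 498 ± 93.0 CPM in TG and 577 ± 110 CPM in WT, with a log2 fold change of -0.21 (SE 0.16). Fau, whose product is made as a fusion with a ubiquitin-like protein, had 196 ± 18.9 CPM in TG and 229 ± 44.8 CPM in WT (log2 fold change -0.22, SE 0.14). Rps3a1 had 322 ± 59.7 CPM in TG and 329 ± 28.5 CPM in WT (log2 fold change -0.03, SE 0.13). None of the 3 had an adjusted p under 0.05 (edgeR, 0.9996 for each).

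Genes that make or regulate ribosomes were read from lists, and none of their members passed the test in either direction. Of the other TOP mRNAs, such as elongation factors and also Fau and Rack1, 13 of 19 were below 0, with a median log2 fold change of -0.01. Of the initiation factors 10 of 30 were below 0, with a median of 0.02. Eif6, which keeps the subunits apart, had the smallest p of that list, with 36.9 ± 7.05 CPM in TG and 42.1 ± 6.44 CPM in WT, and Eif1, which helps to select the start codon, was the most abundant, at 667.5 ± 35.9 FPKM in TG and 666.7 ± 31.8 FPKM in WT. Of the ribosome biogenesis genes 21 of 40 were below 0, with a median of -0.01, and Nop10, part of the pseudouridylation complex, had 72.5 ± 9.25 CPM in TG and 83.3 ± 8.50 CPM in WT. Among 16 regulators of ribosomal protein synthesis 5 were below 0, with a median of 0.08. Larp1, which binds the TOP motif, had 180.5, 169.7, 175.2 and 179.5 CPM in TG 1 to TG 4 and 151.4, 146.8, 160.3 and 170.5 CPM in WT 1 to WT 4. Only WT 4 reached into the TG range, and the log2 fold change was 0.16 (SE 0.09, edgeR adjusted p = 0.9996). Eif4ebp1, the repressor of cap binding that mTOR phosphorylates, had 123 ± 19.3 CPM in TG and 128 ± 22.3 CPM in WT. The 75 mitochondrial ribosomal protein genes, whose products translate the mitochondrial mRNAs, had a median of -0.01, with 42 below 0 and 1 with an unadjusted p under 0.05. That gene, Mrpl33, had 26.9 ± 6.91 CPM in TG and 35.4 ± 4.98 CPM in WT (log2 fold change -0.40, SE 0.18), and the most abundant, Mrpl42, had 274 ± 92.6 CPM in TG and 282 ± 63.4 CPM in WT. Against 0.28 in the cytosolic ribosomal protein genes, the median difference between deeper and shallower libraries was 0.14 in the other TOP mRNAs, 0.13 in the mitochondrial ribosomal protein genes, 0.08 in biogenesis genes, 0.00 in initiation factors and -0.05 in the regulators.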

How the data were processed

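Polyadenylated RNA of mouse heart was sequenced in 4 TG and 4 WT libraries, and samples were grouped by title. The authors deposited, per the file headers, an expected count, an FPKM value and a length per NCBI Gene number for each library. The submitters' processing notes name Bowtie2 and mm8 but give no role for either. The counter, annotation and use of strand are not given in the sources used here. No 0 is listed, so an unlisted gene was taken as 0. Symbols came from the RefSeq table of GRCm38.p6, matched by number for 18174 of 18215 genes. That build differs from the authors', so coordinates are given only for RefSeq promoter windows.

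Expected counts were rounded to whole numbers and tested with edgeR 4.0.16 in R 4.3.3: TMM scaling on full library totals, filterByExpr (minimum count 10, minimum total 15), group as the sole factor, quasi-likelihood F-test, two-sided, Benjamini-Hochberg adjustment over all 12670 tested genes, threshold 0.05. SE was taken as the size of the log2 fold change over the root of the F statistic. Log values by library used a prior count of 2. GC content and transcript length were averaged over GENCODE transcripts, matched through the RefSeq transcript identifiers listed for each gene, for 99.1% of tested genes. Between 79.0% and 79.8% of the genes listed for a library had a whole-number count. A level of 3 counts corresponds to 0.380 to 0.479 CPM, covering counting error only. No 2 libraries of a group agreed within sampling noise (smallest chi-square per degree of freedom 4.45). The test was checked on simulated counts.

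Alternatives were RLE and upper quartile scaling, library totals, DESeq2 1.42.0, other filters, limma 3.58.1 on log2(FPKM + 1) and log2(FPKM + 0.1), a replicate block, Carns1 left out and each library left out. Chosen after seeing the data were the depth class as a covariate, deeper or shallower libraries alone, and offsets for GC content and length. Members and lists were chosen with earlier results of these data known. Named were paralogue pairs, stalk genes, Rpsa, Rps6, Rpl5, Rpl11, Rpl13a, Rps3, the 5 members with the smallest unadjusted p in each direction, and the 3 most and 3 least abundant. Some genes that these rules take are not reported here. From each list the gene with the smallest p and the most abundant one were named. Rps14, Rpl36, Rpl4, Rpl21, the steadiest and widest members and the members named for long lengths or fractional counts were named after their values were seen.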

Additional observations from a re-analysis of the deposited data

Results flagged for a closer look

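The TG 4 value of Rps4x, 274.6 CPM, stands apart from the other TG libraries, at 295.6, 298.0 and 299.0 CPM. Its gap to the nearest of them is 0.861 of the range of the group, above Dixon's 95% critical value of 0.83 for 4 samples. It is 1 of 70 groups of 4 values tested in this way, and chance flags about 1 group in 20. The value lies below every WT library, which ran from 297.7 to 358.3 CPM.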

How the results depend on the processing

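Under all 22 alternatives 0 ribosomal protein genes passed the threshold on adjusted p, while at an unadjusted p under 0.05 between 0 and 25 did, and the median log2 fold change of the members stayed below 0, from -0.19 without WT replicate 4 to -0.01 with GC and length offsets. The difference in their share of counts ranged from -0.336 to -0.105 percentage points as single libraries were left out, and was -0.166 with Carns1 left out of the totals.

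The count of all genes past the threshold, 2, was 15 with DESeq2, 4 without the filter, 1 with limma at either pseudocount, 0 with Carns1 left out, 1 to 3 with single libraries left out, 28 with the depth class as a covariate, 59 in the deeper and 4 in the shallower libraries alone, and 6 with GC and length offsets; the cause was not tested. The log2 ratio of Rpl3l to Rpl3, TG minus WT, was 0.15 in the deeper and -0.32 in the shallower libraries, and ranged from -0.149 to -0.008 as single libraries were left out.

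Deviations of same-numbered TG and WT libraries correlated at 0.236, -0.283, -0.183 and 0.402 over 12670 genes. Numbers 1 and 4 join libraries of the same depth class, and numbers 2 and 3 join libraries of different classes. The signs follow that split, so they cannot show whether replicate numbers pair the samples. With the number as a replicate block 1 gene and 0 members were called, the median was -0.11, and Rpl11 had 0.0147.

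Of 704 values of the 32 tested named members under alternatives, 0 passed the threshold and 50 had another sign than the main value. For Rpl11, limma gave 0.0044 at both pseudocounts, and the depth class as a covariate 0.0113. In the deeper libraries alone the log2 fold change was -0.14 for Rpl23, -0.012 for Rpl23a, 0.0181 for Rpl36a and -0.11 for Rpl36al. In the shallower ones it was 0.18 for Rpl11, 0.10 for Rpl22l1, 0.0218 for Rpl3, 0.0200 for Rpl41, 0.0727 for Rps27, 0.0479 for Rps27l and 0.0655 for Rps6. With GC and length offsets it was 0.0832 for Rpl11, 0.0080 for Rpl22l1, 0.0755 for Rpl36a, 0.0015 for Rpl41, 0.0090 for Rplp2, 0.0931 for Rps27, 0.0769 for Rps27l and 0.0324 for Rps6. As single libraries were left out, Rpl11 ranged from -0.12 to 0.11, Rpl22l1 from -0.20 to 0.0327, Rpl23 from -0.0281 to 0.17, Rpl23a from -0.034 to 0.079, Rpl36a from -0.0738 to 0.0632, Rpl36al from -0.0855 to 0.16, Rpl39 from -0.25 to 0.064, Rpl5 from -0.063 to 0.16, Rplp2 from -0.18 to 0.0527, Rps27 from -0.17 to 0.11, Rps27l from -0.13 to 0.13 and Rps6 from -0.0571 to 0.0366; the cause was not tested. Depth limits Rpl22l1, near 6 CPM, and the untested Rpl39l and Rpl32l most.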
